A study of Xenopus tropicalis with 12 samples.

Results

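This report describes 57 transcript features of an Agilent array whose signal was at least 2-fold higher in frog embryos exposed to either of 2 mixtures of naphthenic acids than in control embryos. They were selected on the measured changes themselves, in the authors' deposited log2 value table. A feature was chosen by 4 conditions: a mean of S1 minus control of at least 1 on the log2 scale, the same for S2 minus control, the lowest of the 8 exposed arrays above the highest of the 4 control arrays, and a signal well above background on all 8 exposed arrays. A further condition was that the array design calls the probe specific, as against a probe that may cross-hybridise with related transcripts. Of 32899 distinct probes, 17780 were specific. Of these, 63 met the conditions, and 6 of them were left out by name, which leaves 57 members. Another 65 probes met the same numeric conditions but were cross-hybridising, and they are not members. Because the conditions used S1 minus control and S2 minus control, those changes describe how the members were chosen. Members' p-values against control are given below as description only, and not as an independent test.

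The RNA came from whole embryos of Xenopus tropicalis at 3 days post fertilization, with 1 embryo sample per array and 4 arrays in each of 3 groups. The groups were control (C), naphthenic acid mixture S1 and naphthenic acid mixture S2, and the series' design text gives S1 and S2 as different lots of the same commercial product. The dose, the length of exposure and what the control embryos received in place of the acids are not given in the sources used here. The labels do not say whether the 4 samples of a group came from separate clutches or tanks, so p-values measure only the spread between these samples, which may be technical. Naphthenic acids are carboxylic acids with rings and side chains that occur in petroleum and in the process water of oil sands. Vertebrates answer foreign organic acids with enzymes that oxidise and conjugate them and with membrane pumps, mostly in liver, gut and kidney. Innate defence against viruses uses sensors of foreign RNA and interferon-induced GTPases, which many tissues make at low levels at rest.

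The members carried few names. Of the 57, 6 matched a gene with a symbol, namely ddx58, gbp7, slc39a8, adm2, arsa.2 and gramd2a, and 6 a gene that the table lists under a LOC placeholder alone. The other 45 matched no entry of the gene table and are called by their transcript accession. Of the members 21.1% matched a gene, against 26.0% of the 15689 specific probes tested. Of all 29168 tested probes, 23713 matched no entry. A gene called not measured below may therefore still be on the array under an unmatched accession. Predicted transcripts (accessions beginning XM) made up 36 members, sequenced clones beginning BC made up 15, and clones beginning CR or CT made up 6. No sequences of these probes or transcripts were given, so none are shown.

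A level is given below as log2 of the array's processed signal minus the array's 75th percentile, so that 0 is the brightness of the 75th percentile of spots. On this scale a level of one member is not compared with that of another, since probes differ in how brightly they bind. The 75th percentile itself lay at an intensity of 500 to 985 on the control arrays, 261 to 537 on the S1 arrays and 481 to 675 on the S2 arrays. The S1 range was therefore the lowest, although S1-1, at 537, was brighter than C-4, S2-1 and S2-2. Scaling to the 75th percentile raises the values of dim arrays against those of bright ones. This bears on both changes against control, since C-1, at 985, and C-2, at 844, were brighter than every S1 and S2 array. Without any scaling, the intensities of 12 members did not overlap between control and exposed arrays, and those of 45 did. Members were chosen for not overlapping in the deposited table, and the same count over all probes is not given here. These counts are therefore read no further. Of the variance over all probes 26.7% lay on the first principal component, and arrays C-3, S1-4 and S2-4, all on slide 3, lay apart from others of their group on the leading components.

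On the 75th-percentile scale the members' median change was 1.60 in S1, or 3.03-fold, and 1.58 in S2, or 2.99-fold. Over all specific probes tested the median change was -0.03 in S1 and -0.05 in S2. The members ran from 0.93 to 10.09 in S1 and from 0.85 to 10.39 in S2, and 18 of them lay above 4-fold in both mixtures. In whole embryos, more cells of a type and more RNA per cell cannot be told apart. With limma and Benjamini-Hochberg adjustment over all 29168 tested probes, 49 members passed an adjusted p of 0.05 as higher in S1, where 1.4% of all tested probes did. In S2 49 members passed as higher, where 2.43% of all tested probes did, and 48 members passed in both. These counts follow from the choice of the members and are read no further. With array brightness as a covariate 21 members passed in S1 and 41 in S2, and the part of brightness in the S1 and S2 values was not tested beyond this.

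**Figure D1:**
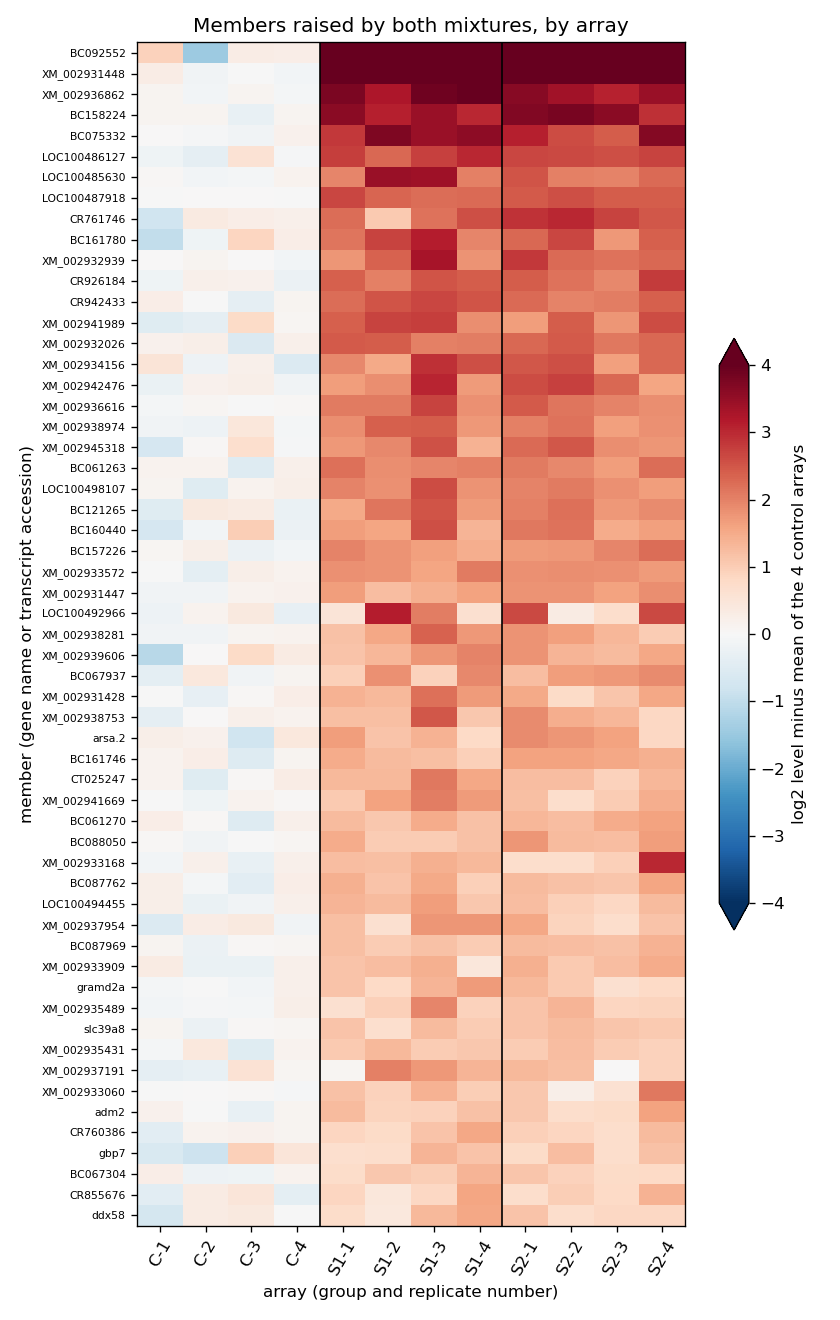
Each line is 1 of the 57 members and each column 1 of the 12 arrays; the colour gives the log2 level minus the mean of the 4 control arrays, with values beyond 4 shown in the darkest colour. BC092552 and XM_002931448 exceed the colour scale on all 8 exposed arrays, and LOC100492966, XM_002933168 and XM_002937191 differ widely between arrays of 1 group.

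The members with symbols from antiviral defence were ddx58 and gbp7. The gene ddx58 encodes RIG-I, a helicase of the cytoplasm that binds viral RNA and starts the induction of interferon. Its levels were -6.41, -5.39, -5.33 and -5.74 on the 4 control arrays, -4.99, -5.31, -4.43 and -4.17 on the S1 arrays and -4.57, -5.01, -4.89 and -4.88 on the S2 arrays. The control and exposed arrays of ddx58 met almost edge to edge, with 0.02 between control array C-3 and exposed array S1-2. The change was 0.99 ± 0.27 (SE, n = 4 per group) in S1 and 0.88 ± 0.27 in S2. Neither change passed (limma adjusted p = 0.0851 and 0.0867). On this scale both were under 2-fold, although ddx58 met the 2-fold condition in the deposited table. It was a dim probe, well above background on only 2 of the 4 control arrays, and its unscaled intensity was 9.3 to 20.2 in controls and 11.9 to 22.8 in exposed embryos.

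The gene gbp7 belongs to the guanylate-binding proteins, GTPases that interferon induces in mammals and that act against intracellular pathogens. Its levels were -5.77, -5.97, -4.21 and -4.67 on the control arrays, -4.48, -4.45, -3.78 and -4.0 on the S1 arrays and -4.40, -3.91, -4.45 and -3.99 on the S2 arrays. Control array C-3, at -4.21, lay above 4 of the exposed arrays, so the groups overlapped on the 75th-percentile scale. The change of gbp7 was 0.98 ± 0.35 in S1 and 0.97 ± 0.35 in S2, and neither passed (limma adjusted p = 0.175 and 0.133). The probe was well above background on 3 of the 4 control arrays. In the fit that allowed for array brightness, the change of gbp7 was 0.09 in S1 and 0.51 in S2. Neither passed (limma adjusted p = 0.941 and 0.362).

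The other genes measured from a fixed list of interferon-induced genes did not pass the test either. The list does not cover all such genes, and it holds neither gbp7 nor the genes left out by name. Apart from ddx58, 6 of a list of 38 were measured by a probe with a symbol, and 0 of 6 passed in S1 or in S2. Their median change was 0.48 in S1 and 0.33 in S2, beside -0.03 and -0.05 over all 4372 genes with a symbol. In S1, 1.35% of genes with a symbol passed as higher and 0.892% as lower, and in S2 the shares were 2.42% and 3.02%. The antiviral enzyme gene rsad2 stood at 2.49 ± 0.63 in S1 (limma adjusted p = 0.0655) and 1.78 ± 0.63 in S2 (adjusted p = 0.127). The control mean of rsad2 was -5.65, and of the 6 genes 4 were well above background on all arrays. The values of ifih1, whose product is a second RNA sensor related to RIG-I, were 0.42 ± 0.18 in S1 (limma adjusted p = 0.265) and 0.18 ± 0.18 in S2 (adjusted p = 0.611). Those of dhx58, the third member of that sensor family, were 0.11 and -0.14. Of 7 inflammation genes measured, 0 passed in S1 and mpo, the neutrophil enzyme myeloperoxidase, passed as higher in S2 (0.58 ± 0.15, limma adjusted p = 0.0498). The call for mpo in S2 held in 2 of the 12 sets that leave out 1 array, and in the other sets the adjusted p reached up to 0.144.

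The gene slc39a8 encodes ZIP8, a transporter that brings zinc, manganese and cadmium into cells. Its levels were -1.09, -1.44, -1.16 and -1.11 on the control arrays, -0.05, -0.54, 0.07 and -0.17 on the S1 arrays and -0.05, 0.08, -0.08 and -0.15 on the S2 arrays. The exposed arrays lay at least 0.55 above the controls, and that they lay above follows largely from the choice of members. The 4 S2 arrays lay within a narrow span, with an SD of 0.10. Unscaled control intensities of 231.6 to 463.1 overlapped the exposed ones of 232.6 to 637.4. The change was 1.03 ± 0.13 in S1 and 1.15 ± 0.13 in S2.

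The gene adm2 encodes adrenomedullin 2, also called intermedin, a secreted peptide of the calcitonin family that widens blood vessels in mammals. Its levels were -2.26, -2.43, -2.72 and -2.31 on the control arrays, -1.17, -1.54, -1.52 and -1.27 on the S1 arrays and -1.34, -1.71, -1.65 and -0.81 on the S2 arrays. All exposed arrays lay above all controls, which follows largely from the choice of members, and S2-4 was the highest of the 8. Unscaled control intensities of 84.9 to 205.4 overlapped the exposed ones of 108.5 to 312.3. The change was 1.06 ± 0.19 in S1 and 1.05 ± 0.19 in S2.

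The gene arsa.2 is named for arylsulfatase A, the lysosomal enzyme that in humans removes sulfate from sulfatide, a lipid of myelin. Its levels were 0.17, 0.11, -0.84 and 0.36 on the control arrays, 1.62, 1.08, 1.34 and 0.75 on the S1 arrays and 1.85, 1.73, 1.57 and 0.79 on the S2 arrays. Arrays C-3, S1-4 and S2-4 were the lowest of their groups, while C-4, on the same slide as these, was the highest control. The change was 1.24 ± 0.30 in S1, which did not pass (limma adjusted p = 0.0544), and 1.53 ± 0.30 in S2. Of 33 lysosomal genes in a list, 6 were measured and 0 passed in S1 or S2, with median changes of 0.12 and 0.16. They included arsb, a sister arylsulfatase, at -0.16 in S1 and -0.19 in S2, and gusb, which encodes beta-glucuronidase, at 0.39 ± 0.10 in S1 (limma adjusted p = 0.0749).

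The gene gramd2a encodes a protein with a GRAM domain that in human cells sits where the endoplasmic reticulum meets the plasma membrane. Its levels were -3.16, -3.08, -3.19 and -2.88 on the control arrays, -1.93, -2.29, -1.73 and -1.37 on the S1 arrays and -1.79, -2.03, -2.43 and -2.28 on the S2 arrays. On this scale the control and exposed arrays did not overlap, which follows largely from the choice of members. The S1 arrays reached further up than the S2 arrays. Without scaling, control intensities of 61.1 to 110.2 overlapped the exposed ones of 96.9 to 149.2. With array brightness as a covariate the change was 0.76 in S1 (limma adjusted p = 0.258) and 0.70 in S2 (adjusted p = 0.0575). Without that covariate the change was 1.25 ± 0.19 in S1 and 0.95 ± 0.19 in S2, and the direct difference between the mixtures is given with the others below.

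**Figure D2:**
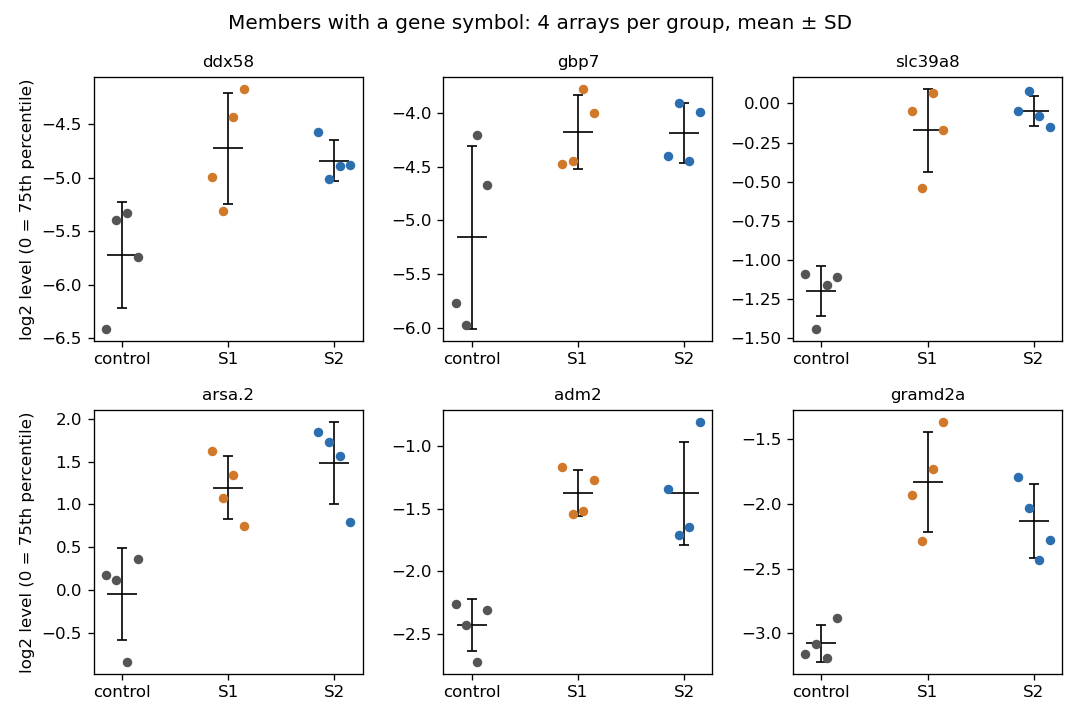
Each panel shows 1 of the 6 members with a gene symbol; points are single arrays, 4 per group, the vertical axis is the log2 level relative to the array's 75th percentile, and bars give the mean ± SD. The exposed points of slc39a8, adm2, arsa.2 and gramd2a lie above all control points, those of ddx58 clear them by 0.02, and those of gbp7 overlap control array C-3 at -4.21. That exposed points lie above control points follows largely from the choice of members. Without scaling, control and exposed intensities overlap in all 6 members.

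The gene table's order places adm2 and arsa.2 on the same chromosome with 8 protein-coding genes between them. Of those 8, miox alone was measured with a symbol, and it did not pass (-0.53 in S1 and -0.06 in S2, on a cross-hybridising probe; limma adjusted p = 0.178 and 0.888). The genes next to slc39a8 on one side are nfkb1, a transcription factor of inflammation, at 0.21 in S1 and -0.04 in S2, and manba, a lysosomal mannosidase, at 0.08 and -0.12, and neither passed.

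Among the 6 members with a LOC placeholder, whose products the gene table does not name, LOC100486127 had the largest smaller change. Its levels were -3.07, -3.25, -2.32 and -2.93 on the control arrays, -0.14, -0.59, -0.16 and 0.11 on the S1 arrays and -0.22, -0.24, -0.33 and -0.19 on the S2 arrays. The change was 2.70 ± 0.19 in S1 and 2.65 ± 0.19 in S2. Without scaling, the highest control intensity was 117 and the lowest exposed intensity 282, so this member did not depend on scaling to separate the groups.

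LOC100487918 varied little within each group. Its control levels were -3.53, -3.49, -3.48 and -3.51, an SD of 0.02. The S1 levels were -0.82, -1.19, -1.28 and -1.24 and the S2 levels -1.05, -0.93, -1.07 and -1.09. The change was 2.37 ± 0.11 in S1 and 2.47 ± 0.11 in S2. In the gene table its nearest protein-coding neighbours on one side are cyp4b1.2 and cyp4b1, which are named for a cytochrome P450 family, and neither was measured by a probe with a symbol here.

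LOC100485630 split the arrays of S1. Its control levels were -3.27, -3.44, -3.40 and -3.18, and its S1 levels were -1.36, 0.12, 0.07 and -1.32, with S1-2 and S1-3, both on slide 2, far above S1-1 and S1-4. The S2 levels of -0.81, -1.30, -1.33 and -1.07 held no such split, although S2-3 was also on slide 2. The change was 2.70 ± 0.32 in S1 and 2.19 ± 0.32 in S2.

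LOC100498107 stood at -2.28, -2.87, -2.23 and -2.13 in controls, at -0.40, -0.55, 0.24 and -0.59 in S1 and at -0.38, -0.31, -0.56 and -0.69 in S2. The change was 2.05 ± 0.20 in S1 and 1.89 ± 0.20 in S2. Its direct neighbour in the gene table, LOC100497952, is not a member because its probe is cross-hybridising. That neighbour passed as higher in S1 (1.46 ± 0.17, limma adjusted p = 0.000526) and in S2 (1.17 ± 0.17, adjusted p = 0.00262). The next genes on the other side, LOC100486629 and LOC100498263, did not pass, at -0.11 and -0.08 in S1 and -0.13 and 0.42 in S2. Most genes within 3 places of the members found in the gene table were not measured by a probe matched to them. Of those measured, the only other to pass was lrrc14b near gramd2a. It was lower in S2 (-1.10 ± 0.28, limma adjusted p = 0.0468).

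LOC100492966, which lies next to the complement gene c3 in the gene table, was the most uneven of the LOC members. Its levels were -4.11, -3.76, -3.50 and -4.24 in controls, -3.38, -0.76, -1.86 and -3.26 in S1 and -1.26, -3.57, -3.19 and -1.25 in S2. Arrays S1-2, S1-3, S2-1 and S2-4 were far above the controls, while the other 4 exposed arrays lay within 1 log2 unit of the highest control and S2-2 lay below it. The change was 1.58 ± 0.64 in each mixture and passed in neither (limma adjusted p = 0.227 in S1 and 0.177 in S2). LOC100494455, which lies next to the chemokine gene ccl20, stood at -2.88, -3.37, -3.25 and -2.90 in controls, at -1.74, -1.82, -1.44 and -2.01 in S1 and at -1.87, -2.15, -2.27 and -1.82 in S2. On this scale its control and exposed arrays did not overlap, which follows largely from the choice of members, although they did without scaling. Its change was 1.35 ± 0.16 in S1 and 1.07 ± 0.16 in S2. Neither c3 nor ccl20 was measured by a probe with a symbol here.

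The largest change of all belonged to BC092552, a cloned transcript with no entry in the gene table and 1 spot per array. Its levels were -5.34, -7.71, -5.95 and -5.99 on the control arrays, 3.72, 3.73, 3.53 and 4.40 on the S1 arrays and 4.22, 4.41, 4.03 and 3.89 on the S2 arrays. In unscaled intensity the controls lay at 4.0 to 24.4 and the exposed arrays at 4877.5 to 11066.5. The transcript was thus near the background in control embryos, well above it on 1 of the 4 control arrays, and bright in every exposed one. The fitted change was 10.09 ± 0.40 in S1 and 10.39 ± 0.40 in S2. With each control array raised to at least the lowest signal counted as well above background, the ratio was 1039.5-fold in S1 and 1274-fold in S2.

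The second was XM_002931448, a predicted transcript. Its levels were -3.97, -4.40, -4.28 and -4.37 in controls, 2.40, 2.22, 2.07 and 2.94 in S1 and 2.33, 2.39, 2.04 and 2.87 in S2. All 4 control arrays were well above background, at intensities of 24.2 to 62.7, and the exposed arrays lay at 1778.3 to 3998.8. The change was 6.67 ± 0.21 in S1 and 6.66 ± 0.21 in S2.

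XM_002931448 has neighbours by number among the members. The accessions XM_002931446, which is LOC100487918, and XM_002931447 come directly before it, and all 3 are members. XM_002931447 stood at -0.37, -0.38, -0.08 and -0.06 in controls, at 1.45, 1.01, 1.19 and 1.40 in S1 and at 1.58, 1.56, 1.37 and 1.65 in S2, a change of 1.49 ± 0.13 and 1.76 ± 0.13. Accession numbers are not positions in the genome, and of the 3 only LOC100487918 has an entry in the gene table, so whether they are neighbours in the genome was not tested.

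XM_002936862 and BC158224 were also above 8-fold in both mixtures. XM_002936862 had levels of -1.33, -1.54, -1.33 and -1.51 in controls, 2.33, 1.80, 2.45 and 2.87 in S1 and 2.20, 1.93, 1.66 and 2.02 in S2, a change of 3.79 ± 0.19 and 3.38 ± 0.19. BC158224 stood in controls at 1.85, 1.84, 1.43 and 1.85, and stood at 5.35, 4.86, 5.20 and 4.75 in S1 and 5.45, 5.55, 5.36 and 4.67 in S2. Its change was 3.30 ± 0.20 in S1 and 3.52 ± 0.20 in S2, and C-3, S1-4 and S2-4 were the lowest of their groups.

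**Figure D3:**
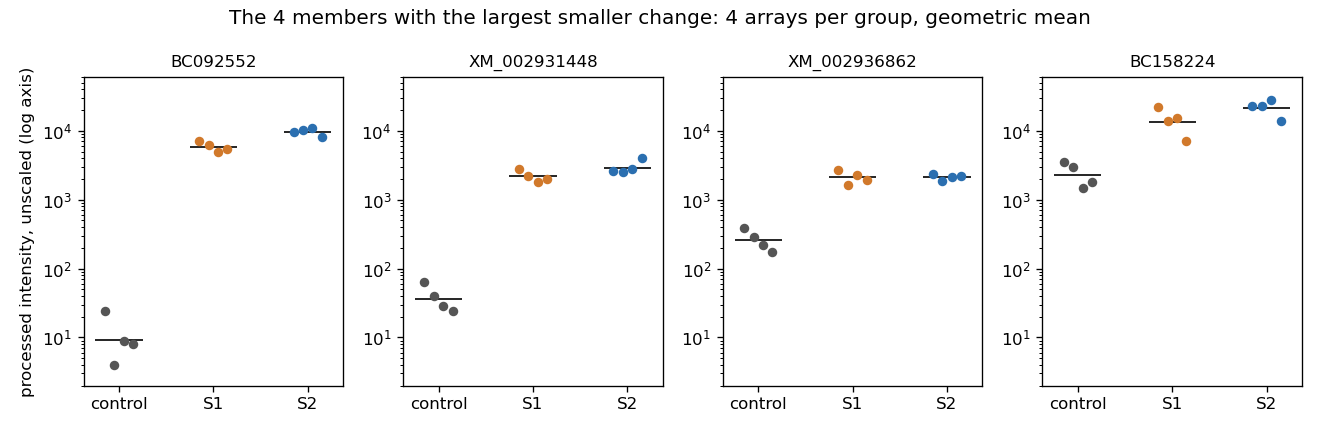
Unscaled processed intensity on a log axis for the 4 members whose smaller change was largest; points are single arrays, 4 per group, and lines are geometric means. BC092552 goes from at most 24.4 in controls to at least 4877.5, and in all 4 members every exposed array is brighter than every control array without any scaling.

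Of the next members without a symbol, BC075332 stood at -2.79, -2.83, -2.94 and -2.63 in controls, at 0.02, 0.95, 0.67 and 0.77 in S1 and at 0.30, -0.19, -0.39 and 0.87 in S2, a change of 3.40 ± 0.26 and 2.94 ± 0.26. CR926184 stood at -4.52, -4.15, -4.18 and -4.60 in controls, at -1.96, -2.36, -1.85 and -1.95 in S1 and at -1.94, -2.20, -2.45 and -1.55 in S2, a change of 2.33 ± 0.19 in each. In both of these S2-4 was the highest S2 array and S2-3 the lowest.
For XM_002932939 the controls lay at -3.37, -3.26, -3.37 and -3.50, the S1 arrays at -1.60, -1.01, -0.08 and -1.58 and the S2 arrays at -0.56, -1.11, -1.19 and -1.09. Its change was 2.31 ± 0.28 in S1 and 2.39 ± 0.28 in S2, with S1-3 and S2-1 the highest of their groups. XM_002934156 stood at -2.36, -3.06, -2.65 and -3.40 in controls, at -0.95, -1.36, 0.06 and -0.29 in S1 and at -0.38, -0.30, -1.24 and -0.57 in S2, a change of 2.23 ± 0.33 and 2.24 ± 0.33.

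The other 37 members had changes of 0.93 to 2.49 in S1 and 0.85 to 2.77 in S2. A few of them rested on single arrays. XM_002933168 stood at -2.96, -2.97, -2.69 and -0.65 on the S2 arrays, and XM_002933060 at -1.40, -2.24, -1.88 and -0.36, so that S2-4 alone set much of their S2 mean. XM_002937191 stood at -6.20, -6.12, -5.26 and -5.74 in controls and at -5.76, -3.82, -4.08 and -4.47 in S1, with S1-1 below the highest control, and S2-3 at -5.80 was too. Of the 57, 53 kept the exposed arrays above the controls on the 75th-percentile scale, a count that follows largely from the choice of members. The exceptions were gbp7, LOC100492966, CR855676 and XM_002937191, and 21 members had a gap of more than 1 between the highest control and the lowest exposed array. The same counts over all probes are not given here, so these counts are read no further.

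The direct comparison of S2 with S1 was the one test the choice of members did not use, although asking for a 2-fold change in both mixtures limits how far they can differ. No member passed: 0 of 57 at a limma adjusted p under 0.05, as for 0% of all 29168 tested probes. The lowest adjusted p of a member was 0.675 and the lowest of any probe 0.0746. At an unadjusted p under 0.05 stood 3 members, or 5.26%, beside 2142 of all probes, or 7.34%. The median of S2 minus S1 was -0.01 over the members and -0.02 over all probes, with 23 members above 0 and 34 below.

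The sizes of difference these arrays could have missed follow from the intervals. The 95% interval of S2 minus S1 lay within 1 log2 unit on either side of 0 for 50 of the 57 members, and its median half-width was 0.45. Over all members the bounds ran from -1.40 to 1.48. The 3 members with the smallest unadjusted p were XM_002941669, CR761746 and XM_002931447.
XM_002941669 was lower in S2 by its values, at -3.10, -2.53, -2.08 and -2.45 in S1 and -2.93, -3.44, -3.11 and -2.68 in S2, a difference of -0.50 (95% interval -0.95 to -0.06, limma adjusted p = 0.675). CR761746 had the largest difference, 0.77 (0.07 to 1.48, limma adjusted p = 0.675), with S1-2 at -5.43 below the other exposed arrays. XM_002931447 differed by 0.28 (0.00 to 0.55, limma adjusted p = 0.680). For gramd2a the difference was -0.30, for arsa.2 0.29, for slc39a8 0.12, for ddx58 -0.11, and for adm2 and gbp7 -0.01 each, and none of these 6 passed.

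**Figure D4:**
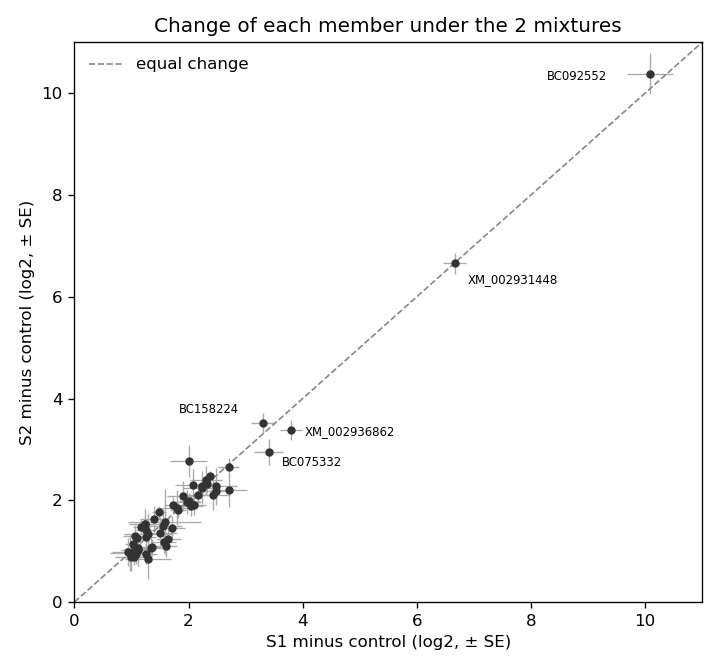
Each point is 1 member, with S1 minus control on the horizontal and S2 minus control on the vertical axis, both in log2 with SE bars; the dashed line marks equal change. The comparisons share the 4 control arrays, which moves both coordinates together, and the members run from near 1 in both to BC092552 at 10.09 and 10.39.

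**Figure D5:**
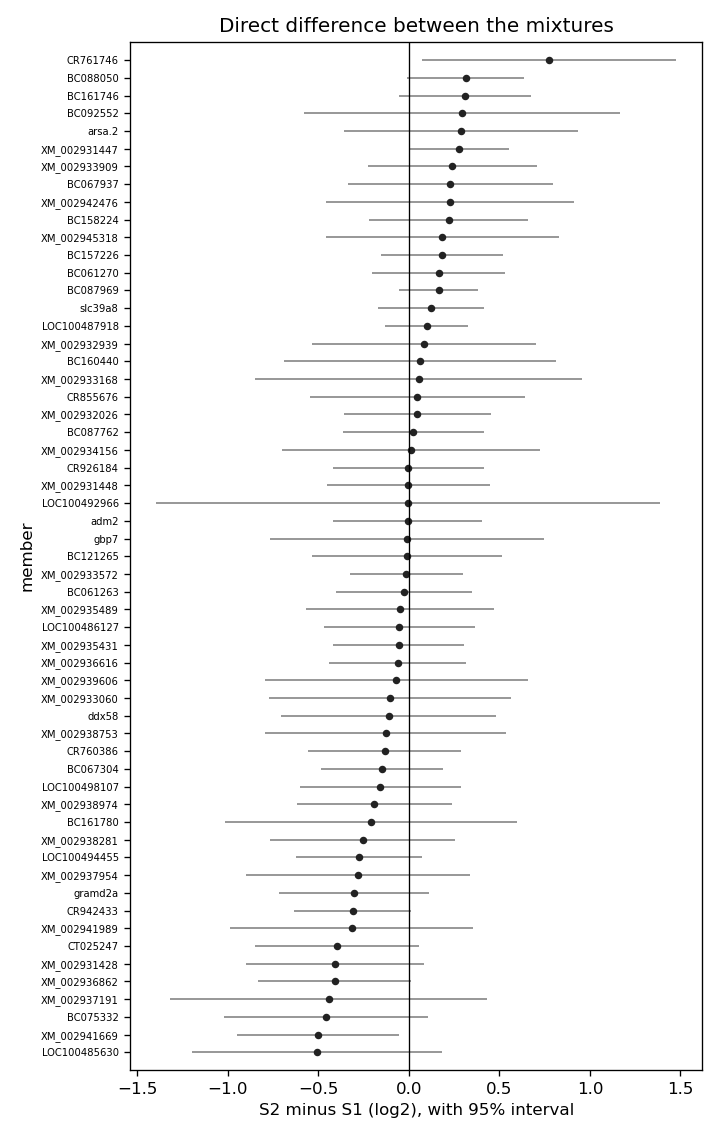
S2 minus S1 in log2 for each of the 57 members with its 95% interval from the limma fit, ordered by size. The values run from -0.51 for LOC100485630 to 0.77 for CR761746, and LOC100492966 has the widest interval.

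The members differed in how their levels moved from array to array within a group. The median SD of a member was 0.27 in controls, 0.38 in S1 and 0.24 in S2, against 0.20, 0.22 and 0.17 over all specific probes tested. Array S1-3 was the highest S1 array for 27 of the 57 members, and its median member stood 2.03 above the control mean, against 1.49, 1.56 and 1.69 on S1-1, S1-2 and S1-4. In S2, array S2-3 was the lowest for 28 members and the highest for 0, at a median of 1.54 against 1.80, 1.67 and 1.69. Each slide held arrays of all 3 groups. The members' median change was 1.57, 1.93 and 1.53 on slides 1, 2 and 3 in S1 and 1.85, 1.47 and 1.64 in S2, and that all 57 were higher on each slide follows from the choice of members.

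Repeat spots on an array gave a second reading of many members. Members with 2 spots numbered 41, or 71.9%, against 60.7% of specific probes tested. The spots of a pair differed by a median of 0.10 on the log2 scale. Each of the 164 changes computed from 1 spot alone was at least 0.79. This follows largely from choosing members on the mean of the same spots. In 6 members, ddx58, gbp7, BC092552, CR761746, CR855676 and XM_002939606, at least 1 control array was not well above background.

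The threshold of 2-fold separated close values. In the deposited table gbp7 lay just inside, at 1.00 in S1 and 1.08 in S2, as did CR760386 at 1.11 and 1.01 and gramd2a at 1.30 and 1.02. Just outside were XM_002943219 at 1.14 and 0.99, CR760187 at 0.99 and 1.15, and XM_002933896 at 0.98 and 1.05. Among genes with a symbol the nearest outside were lamp3, a lysosomal membrane protein gene, at 0.89 and 0.92, acss3, a gene of short-chain acyl-CoA synthesis, at 0.80 and 0.83, and kng1, which encodes the plasma protein kininogen, at 0.77 and 0.87. One member transcript had further specific probes. The 3 other probes of XM_002935431 had changes of 0.97, 0.91 and 1.09 in S1 and 0.81, 0.70 and 0.76 in S2, and all passed in both mixtures by limma without reaching 2-fold in S2.

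Other pathways with a bearing on organic acids were read from gene lists, without the members. Of 48 genes measured on 9 lists, 2 passed as higher and 0 as lower in S1, and 5 passed as higher and 1 as lower in S2. The gene ldlr, whose receptor takes low-density lipoprotein into cells, rose by 0.51 ± 0.10 in S1 (limma adjusted p = 0.0237) and 0.52 ± 0.10 in S2 (adjusted p = 0.0146).
In S2 angptl4, an inhibitor of lipoprotein lipase and target of the PPAR receptors, rose by 0.56 ± 0.14 (limma adjusted p = 0.0376) as 1 of 8 genes of fatty acid oxidation. Malic enzyme me1, 1 of 4 oxidative stress genes, rose by 0.57 ± 0.14 in S2 (limma adjusted p = 0.0375). Few genes of the other lists named next were measured: 4 of 40 conjugation enzymes, 2 of 10 genes of the aryl hydrocarbon receptor, and 4 of 20 of haem and iron. Of these genes, 0 passed in either mixture, with medians between 0.02 and 0.25. The 4 conjugation enzymes all had cross-hybridising probes. So few genes cannot show whether these pathways changed. Leaving out 1 array in turn kept ldlr in 8 of 12 sets in S1 and 10 of 12 in S2. For ldlr the calls were lost without C-1, C-3, C-4 or S1-3 in S1 (adjusted p up to 0.0683) and without S2-1 or S2-2 in S2 (up to 0.0548). The S2 calls of the other genes named here held in fewer sets, angptl4 in 5 of 12 and me1 in 4, with adjusted p up to 0.108 and 0.0995 in the others. With slide as a block the S2 calls of angptl4, me1 and mpo were lost (limma adjusted p = 0.0747, 0.0544 and 0.0510). They were also lost with no filter on dim probes. Those of angptl4 and mpo were lost after quantile normalization and in the authors' value table too. Without C-3, S1-4 and S2-4 the S2 calls of angptl4, me1 and mpo and the S1 call of ldlr were lost (limma adjusted p = 0.0694, 0.0922, 0.129 and 0.0857). With array brightness as a covariate 0 of the list genes passed in S1 and 2 in S2.

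Markers of tissues were few among the named probes. Both neuronal markers measured, nefl and nefm, all 7 liver markers and all 5 pronephros markers were well above background on all 12 arrays. No marker of intestine, epidermis or skeletal muscle was measured with a symbol. Some markers passed beside the members. Of 7 liver markers, plg and kng1 passed as higher in S1 (limma adjusted p = 0.0456 and 0.0481). In S2 plg, kng1 and apob passed as higher (limma adjusted p = 0.0110, 0.0206 and 0.0348). The liver markers alb (0.06 in S1 and -0.25 in S2) and fga (-0.26 and -0.19) passed in neither mixture. Nor did fgg (-0.31 and 0.03) or serpina1 (0.11 and 0.26). The probes of alb, fga and fgg are cross-hybridising, while those of the other 4 liver markers are specific. The median level of the liver list ran from -0.42 to 0.12 on control arrays, -0.19 to 0.24 in S1 and -0.20 to 0.04 in S2. The median level of the 5 pronephros markers ran from 0.39 to 0.51 on control arrays, 0.51 to 0.94 in S1 and 0.76 to 1.19 in S2. Of these markers, amn passed as higher in S1 (limma adjusted p = 0.0408), and amn and lrp2 in S2 (adjusted p = 0.0162 and 0.0171). The others passed in neither: pax8 (-0.30 in S1 and -0.21 in S2, on a cross-hybridising probe), slc12a1 (0.05 and -0.08) and slc12a3 (0.23 and 0.18). Of 3 myeloid markers mpo passed as higher in S2, and csf3r and cxcr4 stood at -0.39 and -0.28 there. The gland gene xa-1, the 1 marker of hatching and cement glands measured, passed as higher in both mixtures (1.81 ± 0.36 and 1.55 ± 0.36, limma adjusted p = 0.0266 and 0.0321). Its levels ran from -2.13 to -0.84 on control arrays, -0.05 to 0.69 in S1 and -0.86 to 0.99 in S2. The lowest S2 array thus lay below the highest control. Of 3 exocrine pancreas markers, all on cross-hybridising probes, ctrb1 passed as lower in S2, while cpa1 at -1.31 and amy2a at 0.19 did not pass there. The part of these tissues in the members' values was not tested.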

How the data were processed

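Total RNA of 12 whole-embryo samples was hybridised, 1 per single-colour array, in 3 groups of 4 as the labels give them. Per the file headers, the authors used Agilent Feature Extraction 11.0.1.1 for the scans. Its processed signal, deposited for each spot, is a linear intensity. The authors also deposited a log2 value table, whose columns share 1 median and rank exactly as the arrays' own signals do; the sources used here do not name the tool behind it. The members were found in that table.

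For the fit, the intensity of each non-control spot was put on the log2 scale and centred on the 75th percentile of its array. Spots marked as outliers were dropped, unless all spots of that probe on that array were so marked. A probe with 1 spot therefore always kept it. No spot was saturated, and each probe took the mean of its spots. A probe counted as above background on an array where at least 1 spot did, and those above it on 4 or more of the 12 arrays were tested with limma 3.58.1 in R 4.3.3, in 1 fit with 3 group means, with Benjamini-Hochberg adjustment over the tested probes and a threshold of 0.05. Per-array precision is limited by the number of arrays. Names came from a RefSeq gene table of another assembly (UCB_Xtro_10.0) than the array's build (JGI 4.1, per the file headers), so it served for names and gene order only.

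Named were all members with a symbol, the 10 of the others with the largest smaller change, passing list genes (up to 2 per list, direction and comparison), the 3 members with the smallest p in S2 against S1 and the 3 nearest symbols below the threshold. Some list genes that this rule takes are counted but not reported here by name. The remaining LOC members and other members named were chosen after their values were seen. Neighbouring genes, and list genes that did not pass, were also named outside this rule, with their values known. The members, lists and rules were chosen with earlier results of these data known. Alternatives covered the scaling, the authors' table, the background correction, the filter on dim probes, the slide, the replicate number, array brightness and leaving out arrays. The files hold gMedianSignal and no mean signal, so normexp (offset 50) used the median signal and the median local background. The test was tried on simulated data. Python 3.11.15 with matplotlib 3.10.9 drew the figures.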

Additional observations from a re-analysis of the deposited data

Results flagged for a closer look

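Among the 20 members named singly, 60 groups of 4 arrays were examined for 1 array far from the other 3, and 2 were found, where chance gives about 1 in 20, or 3. For BC158224, control array C-3 stood at 1.43 and the other controls at 1.84 to 1.85, so that the gap took 0.976 of the range of the group, above the 95% critical value of Dixon's test. For XM_002932939, array S2-1 stood at -0.56 and the other S2 arrays at -1.19 to -1.09, a share of 0.844.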

How the results depend on the processing

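Of the 40 values of named members against control, 820 repeats under other settings kept direction and side of the threshold, 14 passed where they had not, 40 no longer passed and 0 reversed; 27 of the 40 came after normexp with local backgrounds as measured and 7 with array brightness as a covariate. After that normexp, the number of probes changed in S1 against control, in either direction, was 28 in place of 612, and that of probes changed in S2 against control was 29 in place of 1476. It left 0 list genes in either mixture, 3 members passing in each, member medians of 0.81 and 0.65, a median of -0.16 for S2 minus S1, and 8 members meeting the rule. With outlying local backgrounds replaced, 655 probes changed in S2, 2 list genes passed in S2, medians were 1.12, 1.04 and -0.15, and 28 probes met the rule, 27 of them members. With brightness as a covariate, added after seeing the data, 104 and 732 probes changed, 0 and 2 list genes passed and 21 members passed in S1. Without C-3, S1-4 and S2-4, also added later, list genes passing were 1 and 2, and 64 probes met the rule, 46 of them members. With the replicate block, 420, 1100 and 0 probes changed and 1 list gene passed in S1. The calls of ldlr in S1 (limma adjusted p = 0.0588) and of angptl4 and me1 in S2 (0.0704 and 0.0687) were then lost; no other result moved by over 1.5 times. Deviations from group means correlated above 0.1 in 8 of 12 same-numbered pairs of arrays (-0.03 to 0.36) and in 4 of 36 other pairs (-0.44 to 0.45). Of the 12 same-numbered pairs 8 shared a slide. In 17 of 24 cases an array correlated best with its own number among the 4 arrays of another group. Not every same-numbered pair exceeded 0.1, and the main fit did not use the numbers as a pairing. That cutoff is not a test of pairing, so whether the numbers mark one was not settled. Slide as a block gave an S2 median of 1.69. With no filter on dim probes 2 list genes passed in S2, and with probes above background on all arrays 2 probes differed between mixtures. A 1.5-fold threshold gave 150 probes, with all 57 members, and a 3-fold one 28. Leaving out 1 array in turn gave 277 (without S1-3) to 744 probes in S1, 482 (without S2-1) to 1673 in S2 and 0 to 1 between mixtures, 1 to 3 and 1 to 6 list genes, 43 to 52 and 43 to 51 members passing, 0 members differing, medians of 1.49 to 1.74, 1.56 to 1.71 and -0.09 to 0.07, and 52 to 65 probes meeting the rule. The S1 count of probes was lower by over 1.5 times without C-1, C-2, C-3, C-4, S1-1, S1-3, S2-1 or S2-3, and the S2 count without C-1, C-3, C-4, S2-1, S2-2 or S2-3. The cause was not tested. Dim probes limit the smallest changes: 35 members had a mean control intensity under 100.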
